A study of Mus musculus with 8 samples.

Results

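The first 10 Mb of mouse chromosome 6 hold a stretch of genes named after Peg10 and Sgce, and 10 genes of this stretch, of 54532 genes counted in all, were examined: Tfpi2, Casd1, Sgce, Peg10, Ppp1r9a, Pon3, Pon2, Pdk4, Dlx6 and Dlx5. The stretch was chosen because its genes had higher measured levels in shMCT-1 than in scramble cells of this same experiment, with no numeric threshold, so the comparison of shMCT-1 with scramble is given for its genes as a description and carries no test. The cells were 4T1, a mouse triple-negative breast cancer line that arose in a BALB/c mammary tumor. They were stably transfected, under puromycin selection, with a scramble short hairpin RNA or with one that targets MCT-1 (gene Mcts1), and whether each line was 1 clone is not given in the sources used here. Both lines received IgG or an antibody to the mouse IL-6 receptor (anti-IL-6R, 100 ng/ml) for 48 h, which gave 4 groups, named by line and treatment. RNA was sequenced from 2 libraries of each group, described as independent biological replicates, and no library of untransfected 4T1 cells was analysed here.

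Genomic imprinting silences 1 parental copy of a gene, and the proximal end of mouse chromosome 6 carries such a domain. Peg10, a coding gene derived from a retrotransposon, and Sgce, which encodes the sarcoglycan epsilon of the dystrophin-associated complex, are expressed from the paternal copy and share a promoter region, whereas several neighbours are biased to the maternal copy in some tissues only. The counts analysed here sum both parental copies, so imprinting itself was not measured.

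The 8 libraries held 19839299 to 33063570 counts, and all scramble libraries (24100084 or more) were deeper than all shMCT-1 libraries (23448587 or less). Levels are given in CPM, which are counts scaled so that each library sums to 1000000. Mcts1 was at 11.8 to 15.4 CPM in the scramble libraries and at 4.92 to 6.70 CPM in the shMCT-1 libraries (log2 fold change -1.10, SE 0.116) and so was lower in the line labelled as silenced. The epithelial markers Epcam, Cdh1, Krt8, Krt18, Krt19 and Krt7 summed to 2344 to 2497 CPM in scramble and 3074 to 3332 CPM in shMCT-1, 4 of the 6 being called higher and Krt19 lower. Krt8 and Krt18 carried most of this sum, while Epcam rose from a mean of 4.37 to 51.3 CPM (log2 fold change 3.60, SE 0.089) and Krt19 fell from 18.4 to 0.552 CPM (-5.00, SE 0.162). Krt19 exceeded 1 CPM only in scramble libraries. The marker lists of other cells were low: the 8 fibroblast genes summed to 15.3 to 17.3 CPM in scramble and 12.7 to 16.3 CPM in shMCT-1, nearly all of it Pdgfra, with Lum at 0 in every library. The 6 immune genes summed to 3.12 to 3.94 and 6.11 to 7.82 CPM, with Cd3e and Adgre1 at 0, and the 4 endothelial genes to 0.0960 to 0.332 and 0.554 to 1.91 CPM. In each of these lists 1 gene was called higher and 0 lower. Cd68, most of the immune sum, rose from a mean of 3.06 to 6.41 CPM (1.12, SE 0.144). Col1a1 rose from 0.421 to 1.31 CPM (1.66, SE 0.279) and Cdh5 from 0.0311 to 0.921 CPM (4.95, SE 0.771). Both Col1a1 and Cdh5 exceeded 1 CPM only in shMCT-1 libraries. The part of these differences in the values below was not tested.

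The promoter windows of the 10 genes are shown to set the genes that were expressed beside those that were not. RefSeq windows on GRCm38.p6, from 250 bases before to 50 after a transcript start, were at hand for 6 of the 10 genes, and Sgce, Peg10, Dlx5 and Dlx6 had none. Where a gene had several windows, the one at which most annotated transcripts start was taken. Tfpi2 had 3 windows, and Casd1 and Ppp1r9a had 2 each. At the window taken, 2 of 3 annotated transcripts of Tfpi2 start, 2 of 5 of Casd1 and 3 of 12 of Ppp1r9a. For Pon2 it was 1 of 4, for Pon3 4 of 6 and for Pdk4 3 of 3. The counts below thus describe 1 start of each gene, and the windows not taken were not compared. The sequences run 5′ to 3′ on the strand of the gene, and capitals mark each CG dinucleotide, the site of DNA methylation. The first 4 belong to the genes that were expressed in 4T1 cells, Casd1 (chr6:4600661-4600960, plus strand), Ppp1r9a (chr6:4902725-4903024, plus strand), Pon2 (chr6:5298291-5298590, minus strand) and Pon3 (chr6:5256184-5256483, minus strand).
Casd1: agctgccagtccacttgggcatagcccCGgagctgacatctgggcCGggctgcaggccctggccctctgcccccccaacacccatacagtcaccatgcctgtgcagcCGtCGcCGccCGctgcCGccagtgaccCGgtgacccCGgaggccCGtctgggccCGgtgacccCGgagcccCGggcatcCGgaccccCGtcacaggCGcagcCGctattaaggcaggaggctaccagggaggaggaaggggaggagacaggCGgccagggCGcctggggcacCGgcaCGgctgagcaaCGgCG
Ppp1r9a: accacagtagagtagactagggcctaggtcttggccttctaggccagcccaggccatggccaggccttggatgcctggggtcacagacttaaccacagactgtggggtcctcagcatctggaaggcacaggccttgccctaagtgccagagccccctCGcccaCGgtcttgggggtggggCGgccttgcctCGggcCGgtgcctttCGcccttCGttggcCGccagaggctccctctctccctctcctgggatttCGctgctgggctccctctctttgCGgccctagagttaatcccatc
Pon2: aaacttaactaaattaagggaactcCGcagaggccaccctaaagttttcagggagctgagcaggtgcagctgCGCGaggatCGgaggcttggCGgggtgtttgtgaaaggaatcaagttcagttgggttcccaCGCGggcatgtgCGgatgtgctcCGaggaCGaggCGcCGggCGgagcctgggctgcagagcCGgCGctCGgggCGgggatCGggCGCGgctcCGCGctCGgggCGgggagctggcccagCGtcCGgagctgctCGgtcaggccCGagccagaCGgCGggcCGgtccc
Pon3: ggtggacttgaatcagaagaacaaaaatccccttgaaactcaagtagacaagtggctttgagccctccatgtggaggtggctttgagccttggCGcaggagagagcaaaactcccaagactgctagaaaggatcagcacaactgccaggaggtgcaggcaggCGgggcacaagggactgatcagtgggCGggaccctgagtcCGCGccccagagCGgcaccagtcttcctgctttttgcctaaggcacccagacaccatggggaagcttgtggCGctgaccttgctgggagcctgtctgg
The other 2 belong to genes that were at the floor, Pdk4 (chr6:5496229-5496528, minus strand) and Tfpi2 (chr6:3988887-3989186, minus strand).
Pdk4: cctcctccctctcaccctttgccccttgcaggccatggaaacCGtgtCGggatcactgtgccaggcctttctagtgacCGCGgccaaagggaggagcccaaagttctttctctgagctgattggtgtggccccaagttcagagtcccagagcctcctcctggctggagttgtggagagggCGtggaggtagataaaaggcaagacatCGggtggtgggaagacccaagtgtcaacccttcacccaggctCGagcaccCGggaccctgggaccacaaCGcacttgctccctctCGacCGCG
Tfpi2: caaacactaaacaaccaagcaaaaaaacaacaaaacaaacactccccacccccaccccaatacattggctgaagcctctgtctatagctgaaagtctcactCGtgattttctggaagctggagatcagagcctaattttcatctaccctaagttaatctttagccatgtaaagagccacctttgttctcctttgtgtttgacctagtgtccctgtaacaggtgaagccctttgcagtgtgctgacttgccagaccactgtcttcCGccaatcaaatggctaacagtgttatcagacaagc

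CG dinucleotides numbered 31 in the Pon2 window, 23 in that of Casd1, 12 in that of Pdk4, 10 in that of Ppp1r9a, 7 in that of Pon3 and 2 in that of Tfpi2. Over all 32851 windows of this length the median was 7, with quartiles of 3 and 20, so Pon2 and Casd1 lay above the upper quartile and Tfpi2 below the lower one. The GC box GGGCGG, or CCGCCC on the other strand, was found 3 times in Pon2, once each in Casd1, Ppp1r9a and Pon3, and not in Pdk4 or Tfpi2, against 35.7% of all windows that hold it at least once. The letters CCAAT or ATTGG were found in Pdk4 (1) and Tfpi2 (3) only, of the 6 windows, and in 37.4% of all windows. No window of the 6 held TATAAA or TTTATA, which 13.6% of all windows hold. A GC box contains a CG, so the counts of these motifs are not independent, and none of them was measured as a binding site or for methylation.

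The 10 genes fell into 2 groups by level. Casd1, Ppp1r9a, Pon2 and Pon3 exceeded 1 CPM in 2 or more libraries, the limit for testing, which 12704 genes passed. The other 6 genes had 12 counts together over 203043118 counts in all. Both genes that give the stretch its name were in this second group, so the label of a Peg10 and Sgce cluster does not describe what these cells expressed, and the stretch is called by its place from here on.

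Sgce (chromosome 6, 4674350 to 4747207, minus strand) had 0 counts in all 8 libraries. With 0 counts, 3 counts mark the limit, which allowed a level of up to 0.0148 CPM over all libraries, 0.0259 CPM over the 4 scramble libraries and 0.0344 CPM over the 4 shMCT-1 libraries. These limits cover counting error only. Peg10 (4747306 to 4760517, plus strand) starts 99 bp from the start of Sgce on the opposite strand. It had 3 counts, all in the library shMCT-1 + IgG 2 (0.128 CPM), and 0 counts in the other 7 libraries. No expression of either gene was therefore seen in scramble cells at this depth, and none of Sgce in shMCT-1 cells. The 3 counts of Peg10 came to 0.0344 CPM over the 4 shMCT-1 libraries, and the limit for 0 counts does not apply to them.

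Dlx5 (6877805 to 6882085, minus strand) and Dlx6 (6863334 to 6868568, plus strand), a pair of homeobox transcription factor genes that act in limb, jaw and bone development, also had 0 counts in all 8 libraries. Pdk4 (5483351 to 5496309, minus strand), a kinase that inhibits pyruvate dehydrogenase and rises on fasting, had 1 count in scramble + IgG 2 and 1 count in shMCT-1 + IgG 1. Tfpi2 (3962595 to 3988919, minus strand), a secreted Kunitz-type inhibitor of serine proteases, had 7 counts in 5 libraries, 3 of them in scramble and 4 in shMCT-1, with no library above 2. These 6 genes give no fold change, and none of them can be called higher or lower in shMCT-1.

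**Figure D1:**
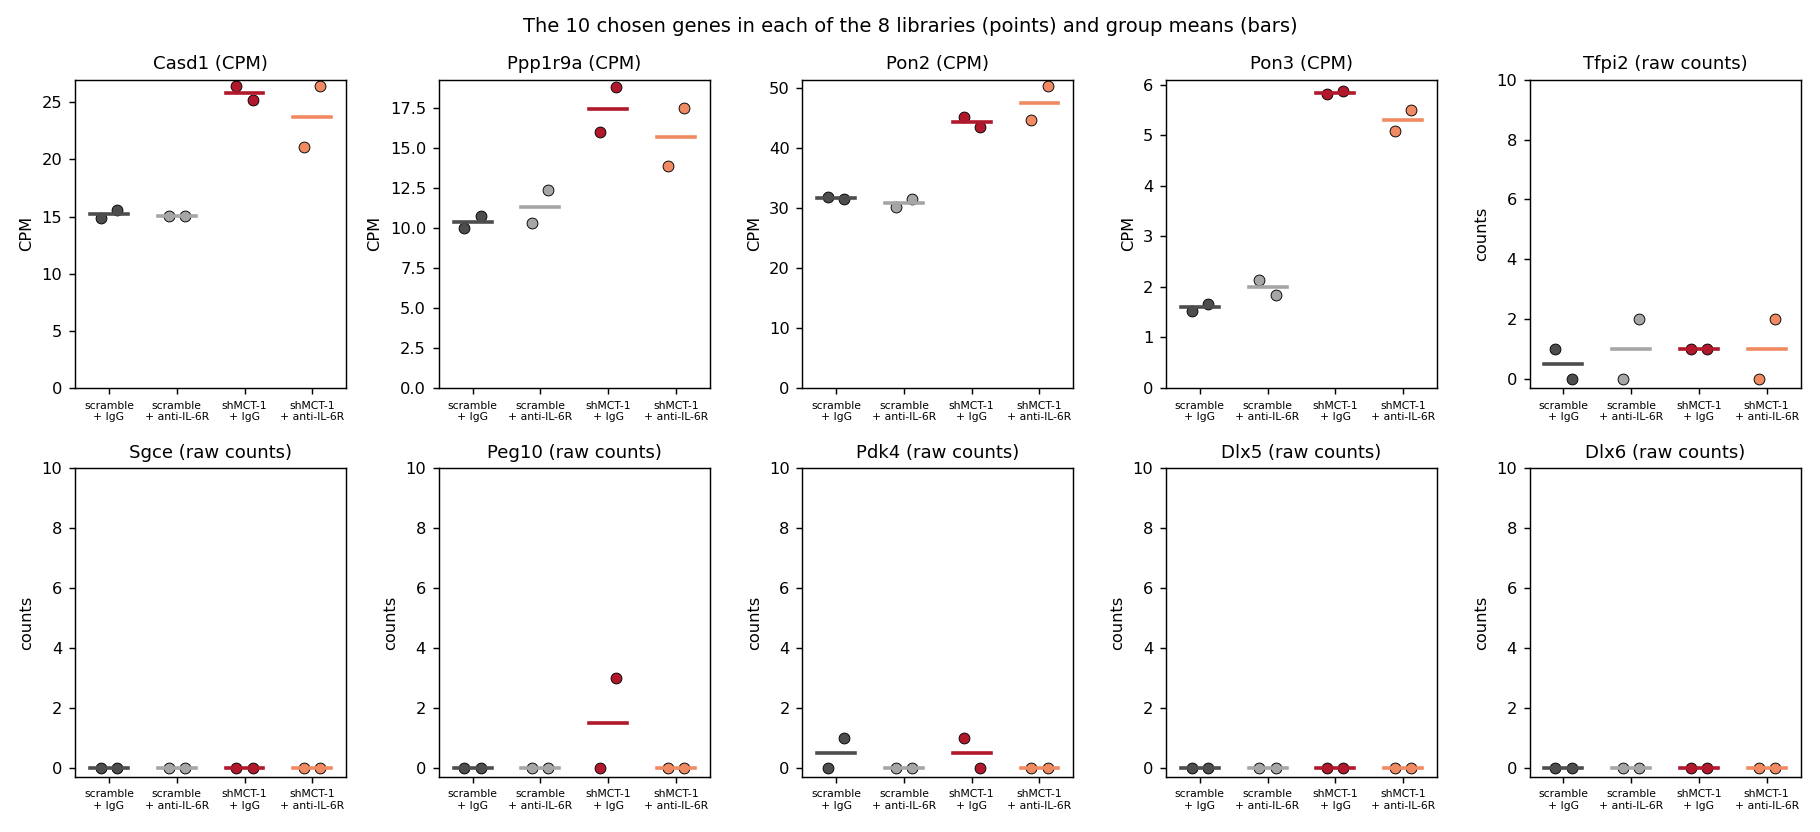
Levels of the 10 chosen genes in the 8 libraries, in CPM for the 4 genes that were tested and in raw counts for the 6 at the floor; points are libraries and horizontal bars the means of 2 libraries. For Casd1, Ppp1r9a, Pon2 and Pon3 every shMCT-1 point lies above every scramble point, and no library has more than 3 counts of any of the other 6 genes.

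Pon3 (5220852 to 5256286, minus strand), a lactonase of the paraoxonase family, differed most between the lines. It was at 1.53 and 1.66 CPM in scramble + IgG, 2.14 and 1.84 CPM in scramble + anti-IL-6R, 5.81 and 5.89 CPM in shMCT-1 + IgG and 5.09 and 5.51 CPM in shMCT-1 + anti-IL-6R. All 4 shMCT-1 libraries were above all 4 scramble libraries, with a wide gap between 2.14 and 5.09 CPM. Over both treatments the log2 fold change between the lines, shMCT-1 over scramble, was 1.68 (SE 0.154), or 3.21-fold.

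Pon2 (5264147 to 5298455, minus strand), an intracellular paraoxonase known to limit oxidative stress, was the most abundant of the 10 genes. It was at 32.0 and 31.6 CPM in scramble + IgG, 30.2 and 31.6 CPM in scramble + anti-IL-6R, 45.2 and 43.6 CPM in shMCT-1 + IgG and 44.8 and 50.4 CPM in shMCT-1 + anti-IL-6R. The lines did not overlap, and the log2 fold change was 0.60 (SE 0.062), or 1.52-fold. The genes Pon2 and Pon3 lie on the same strand with 7860 bp between them, and in counts that no library scaling affects, Pon3 had 4.78 to 7.09 counts per 100 counts of Pon2 in scramble and 10.9 to 13.5 in shMCT-1. Neighbouring paralogs thus differed in how far apart the lines were. The third paraoxonase gene, Pon1, had 2 counts over all libraries. A short unconfirmed transcript, Gm44424, lies within Pon2, and since the use of strand in counting is not given in the sources used here, the reads of overlapping genes may have been split.

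Casd1 (4600839 to 4643355, plus strand), which adds O-acetyl groups to sialic acids, was at 14.9 and 15.6 CPM in scramble + IgG, 15.0 and 15.1 CPM in scramble + anti-IL-6R, 26.4 and 25.2 CPM in shMCT-1 + IgG and 21.1 and 26.4 CPM in shMCT-1 + anti-IL-6R. The scramble libraries lay within less than 1 CPM of each other, and the lowest shMCT-1 library was above them. The log2 fold change was 0.76 (SE 0.079), or 1.69-fold. Ppp1r9a (4902917 to 5165661, plus strand), which encodes neurabin, a scaffold that holds protein phosphatase 1 at actin filaments, was at 10.0 and 10.8 CPM in scramble + IgG, 10.3 and 12.4 CPM in scramble + anti-IL-6R, 16.0 and 18.8 CPM in shMCT-1 + IgG and 13.9 and 17.5 CPM in shMCT-1 + anti-IL-6R. The gap between the lines was the narrowest of the 4 genes, from 12.4 to 13.9 CPM, and the log2 fold change was 0.65 (SE 0.108), or 1.57-fold. In this bulk RNA, more RNA per cell and a larger share of cells that express a gene cannot be told apart.

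Ranked by CPM per kb of merged exons, the scramble levels were 4.27 ± 0.103 for Pon2, 3.75 ± 0.0774 for Casd1, 0.749 ± 0.0731 for Ppp1r9a and 0.530 ± 0.0791 for Pon3 (SD, n = 4). In shMCT-1 they were 6.27 ± 0.413 for Pon2, 6.14 ± 0.621 for Casd1, 1.65 ± 0.107 for Pon3 and 1.14 ± 0.147 for Ppp1r9a. Pon2 and Casd1 therefore did not differ beyond their spread in shMCT-1, and Pon3 and Ppp1r9a changed places in the order. Ppp1r9a stood at 67.3 to 82.2 counts per 100 counts of Casd1 in scramble and 60.7 to 74.8 in shMCT-1, ranges that overlap.

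Non-overlap of the lines held for 4 of the 4 tested genes, and for 29.9% of all 12704 tested genes. Nothing is read from that difference, since the stretch was chosen on it. By treatment, the log2 fold changes between the lines were 1.92 (SE 0.206) with IgG and 1.47 (SE 0.198) with anti-IL-6R for Pon3, and 0.79 (SE 0.151) and 0.52 (SE 0.149) for Ppp1r9a. They were 0.80 (SE 0.118) and 0.72 (SE 0.117) for Casd1, and 0.52 (SE 0.088) and 0.68 (SE 0.088) for Pon2. The 4 genes were thus on the higher side in shMCT-1 under either treatment, and these pairs of values come from separate libraries.

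The neighbours of the 10 genes lie in the same chosen stretch, so their values are a description too. Of 114 annotated genes that start in the first 10 Mb, 35 are protein-coding, and 23 genes, 20 of them protein-coding, passed the limit for testing. The log2 fold change between the lines was above 0 for 22 of these 23 genes, beside 6425 of all 12704 tested genes. It was above 1 for 11, beside 812 of the 12704, with a median of 0.97 against 0.01 over all tested genes. Both counts include Gm16042, which passed the limit only through shMCT-1 libraries (0.288 to 0.604 CPM in scramble). All shMCT-1 libraries were above all scramble libraries for 19 of the 23, beside 29.9% of all tested genes. Nothing is read from these differences, since the stretch was chosen on them. The chosen genes were not the ones that differed most, since Pon3 ranked 2, Casd1 17, Ppp1r9a 19 and Pon2 20 of 23 by log2 fold change, and the 19 other tested genes had a median of 1.00.

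Gng11, a G protein gamma subunit 15.0 kb from Tfpi2 by the gap between the genes, was furthest apart, at 8.42 to 11.3 CPM in scramble and 44.7 to 56.2 CPM in shMCT-1 (log2 fold change 2.41, SE 0.108). Sem1, a small proteasome and BRCA2-binding protein, was at 69.2 to 70.9 and 150.6 to 177.6 CPM (1.34, SE 0.064), and Asns, the asparagine synthetase, at 152.0 to 172.3 and 302.4 to 356.9 CPM (1.02, SE 0.064). Both genes are abundant, and neither overlapped between the lines. Samd9l had a log2 fold change of 1.52 (SE 0.172), Bet1 of 1.33 (SE 0.094), Ica1 of 1.06, Rpa3 of 1.00 and Vps50 of 0.97. Umad1 (0.89), C1galt1 (0.85), Asb4 (0.84), Sdhaf3 (0.78), Slc25a13 (0.74) and Mios (0.38) were also on the higher side without overlap. Asb4, known to be imprinted in some tissues, was a low gene at 1.27 to 1.74 CPM in scramble and 2.11 to 3.13 CPM in shMCT-1.

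Gm44250, an unconfirmed transcript that starts 365 bp beyond the 3′ end of Pon3 on the same strand, was at 2.00 to 3.15 CPM in scramble and 6.86 to 7.79 CPM in shMCT-1 (1.55, SE 0.152). It stood at 119.4 to 190.0 counts per 100 counts of Pon3 in scramble and 121.7 to 141.3 in shMCT-1, so its ratio to Pon3 overlapped between the lines. Of the 23 tested genes, 4 did not have all shMCT-1 libraries above, and these lay toward the far end of the stretch. Glcci1 was at 7.27 to 8.79 CPM in scramble and 3.01 to 6.21 CPM in shMCT-1 (-0.70, SE 0.174), the 1 tested gene lower in every shMCT-1 library. Among untested genes, Gm43294 (0.166 to 0.333 CPM in scramble, 0 to 0.0915 CPM in shMCT-1) and Gm44424 (0.187 to 0.602 and 0 to 0.0426 CPM) were also lower in every shMCT-1 library. Gm20559, untested as well, was higher in every shMCT-1 library, at 0.0320 to 0.124 CPM in scramble and 0.302 to 1.12 CPM in shMCT-1. The 2 genes that overlap Glcci1 in the annotation are Gm45062 (1.53, SE 0.997) and the pseudogene Gm16042 (1.57, SE 0.369). Both had levels that overlapped between the lines, and reads may have been split among these 2 genes and Glcci1. Gm45062 (8259450 to 8597480) also overlaps Umad1 (8259288 to 8459470) on the same strand, so reads of Umad1 may have been split as well. The pseudogene Gm9825 had a log2 fold change of 0.04 (SE 0.080).

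Genes without expression lay between the expressed ones. Of the 35 protein-coding genes 15 were not tested, the 6 at the floor named above and 9 others, and the highest total among the 15 was 24 counts over 8 libraries, for the collagen gene Col1a2. Calcr and Tac1 had 0 counts, as did Nxph1, while Hepacam2 had 2, Dync1i1 1, Col28a1 2 and Gngt1 8. With the exception of Gm45062, every tested protein-coding gene of the stretch was above 1 CPM in all 4 scramble libraries, so these genes were already expressed there. This does not hold for the pseudogene Gm16042 and the untested Gm20559, at no more than 0.604 and 0.124 CPM in scramble.

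**Figure D2:**
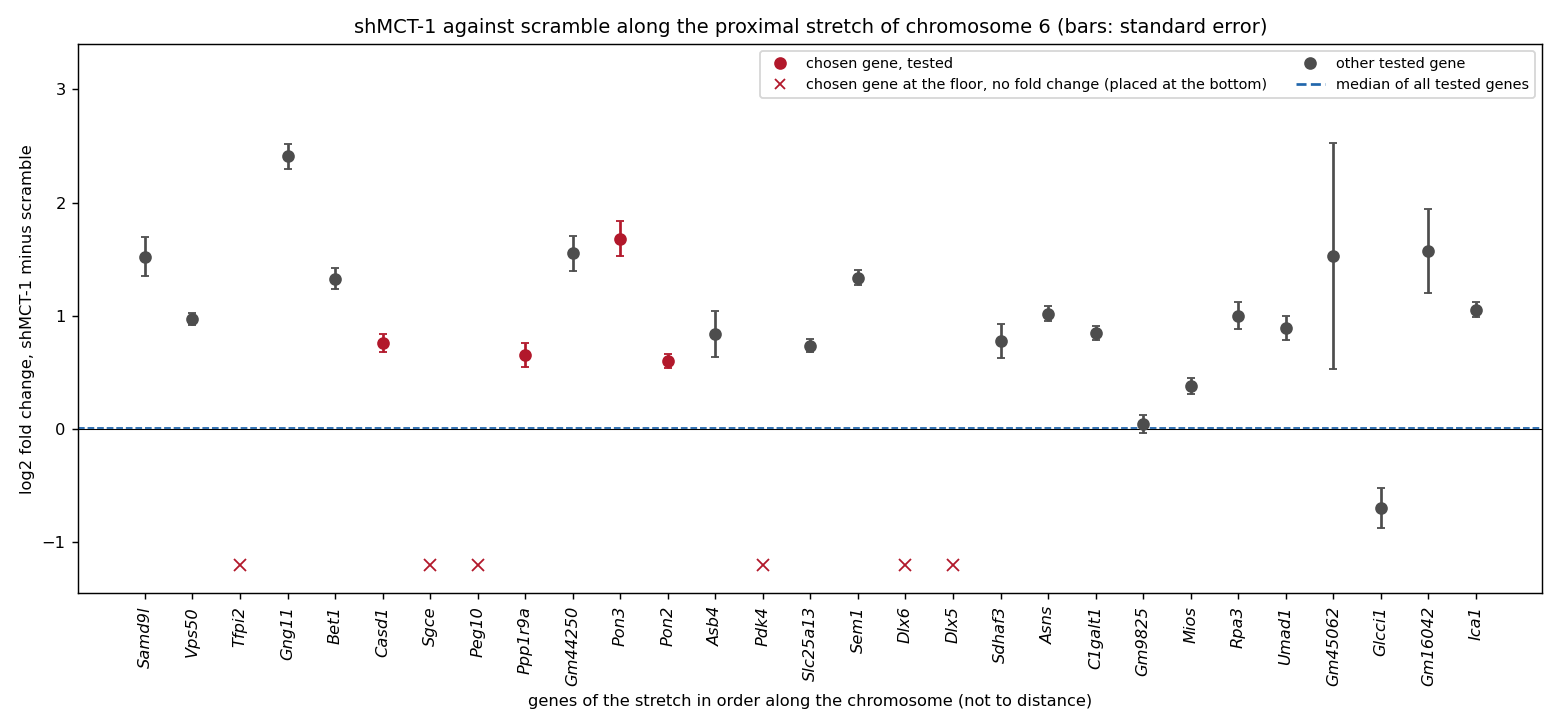
Log2 fold change between the lines (shMCT-1 over scramble) over both treatments, with its standard error, for the 23 tested genes of the stretch in order along the chromosome; crosses mark the 6 chosen genes without a fold change. The median of the 23 genes is 0.97, Gng11 is highest at 2.41 and Glcci1 is the 1 gene below 0, at -0.70.

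Chromosome 6 was then followed in windows of 10 Mb. The median log2 fold change was 0.97 in the first window, 0.47 in the second (16 genes), 0.44 in the third (26 genes), 0.34 in the fourth (53 genes) and 0.33 in the fifth (41 genes). From the sixth to the eleventh window (8 to 88 genes) the medians lay between -0.03 and 0.21, and from the twelfth to the fifteenth they were -0.30, -0.13, -0.44 and -0.67. Higher levels in shMCT-1 thus reached past the stretch into the next windows and gave way to lower levels toward the far end. Among 254 windows of the genome with at least 10 tested genes, the first 3 windows of chromosome 6 ranked 1, 3 and 4 by median and its last window ranked 252. These ranks describe a stretch that was picked for its level.

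**Figure D3:**
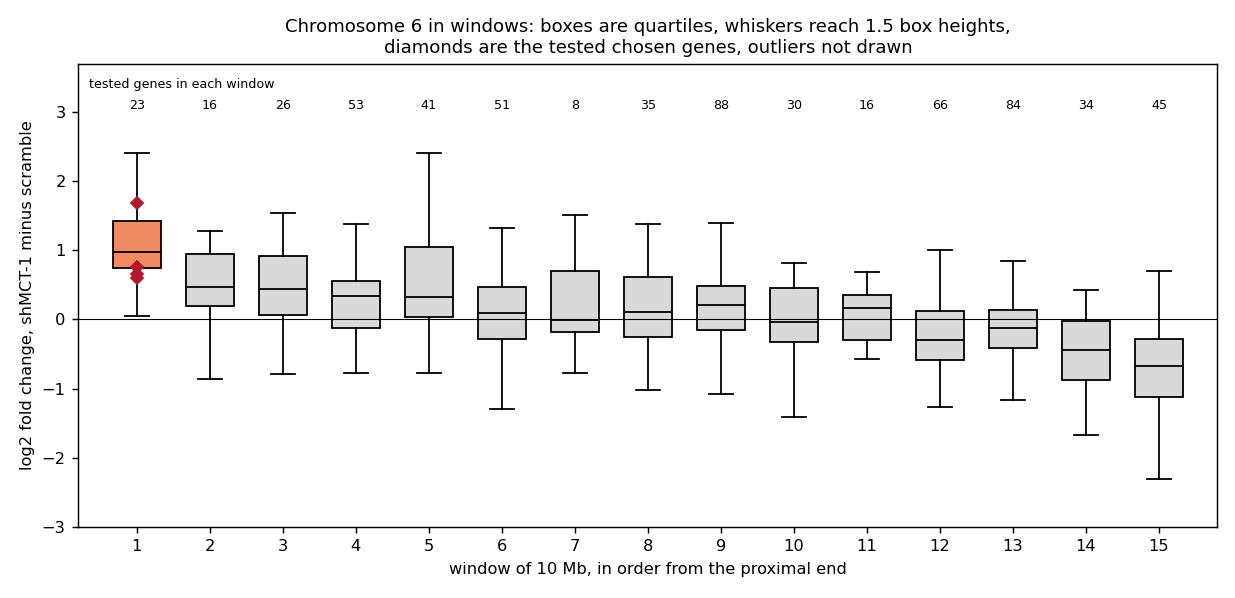
Log2 fold change between the lines (shMCT-1 over scramble) for the tested genes of chromosome 6, in 15 windows of 10 Mb from the proximal end; boxes span the quartiles, lines mark medians, diamonds mark Casd1, Ppp1r9a, Pon2 and Pon3, and the number of genes stands above each box. Medians run from 0.97 in the first window to -0.67 in the last.

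The response to anti-IL-6R did not enter the choice of the stretch and was tested with edgeR's quasi-likelihood test over all 12704 genes. None of the 4 tested genes was called in scramble cells, in shMCT-1 cells, across both lines or in the interaction of line and antibody, and the lowest adjusted p of any of the 4 was 0.995. Of all genes, 0% were called in each of these 4 comparisons. At an unadjusted p under 0.05 the shares of all genes were 1.31% in scramble, 3.98% in shMCT-1, 2.79% across both lines and 2.48% for the interaction, and none of the 4 genes was among them. DESeq2 called 0, 11, 1 and 6 genes in these comparisons, and edgeR's exact test on 4 libraries called 10 in scramble and 14 in shMCT-1. Without the filter on low counts edgeR called 64 genes in scramble, 133 in shMCT-1, 73 across both lines and 97 for the interaction, and without the library scramble + IgG 1 it called 14 in scramble and 8 for the interaction. None of the 4 genes was among those called under any of these settings.

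Across both lines, with 4 libraries against 4, the log2 fold change of anti-IL-6R against IgG was 0.06 for Pon3 (95% interval -0.28 to 0.39), 0.03 for Pon2 (-0.11 to 0.17), -0.02 for Ppp1r9a (-0.26 to 0.22) and -0.07 for Casd1 (-0.24 to 0.10). These intervals leave room for small changes in either direction, narrowest for Pon2, the gene with the most counts, and widest for Pon3, the gene with the fewest. In scramble cells Pon3 had a value of 0.32 (-0.17 to 0.80) and Ppp1r9a of 0.12 (-0.22 to 0.46), and in shMCT-1 cells -0.14 (-0.55 to 0.28) and -0.15 (-0.48 to 0.19). Casd1 was at -0.03 (-0.29 to 0.24) and -0.11 (-0.37 to 0.15), and Pon2 at -0.05 (-0.25 to 0.15) and 0.11 (-0.09 to 0.30). All intervals include 0. The difference between the lines in the response was -0.45 for Pon3 (-1.09 to 0.19), -0.26 for Ppp1r9a (-0.74 to 0.21), 0.16 for Pon2 (-0.12 to 0.43) and -0.09 for Casd1 (-0.46 to 0.28). No difference in response was detectable with 2 libraries a group.

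**Figure D4:**
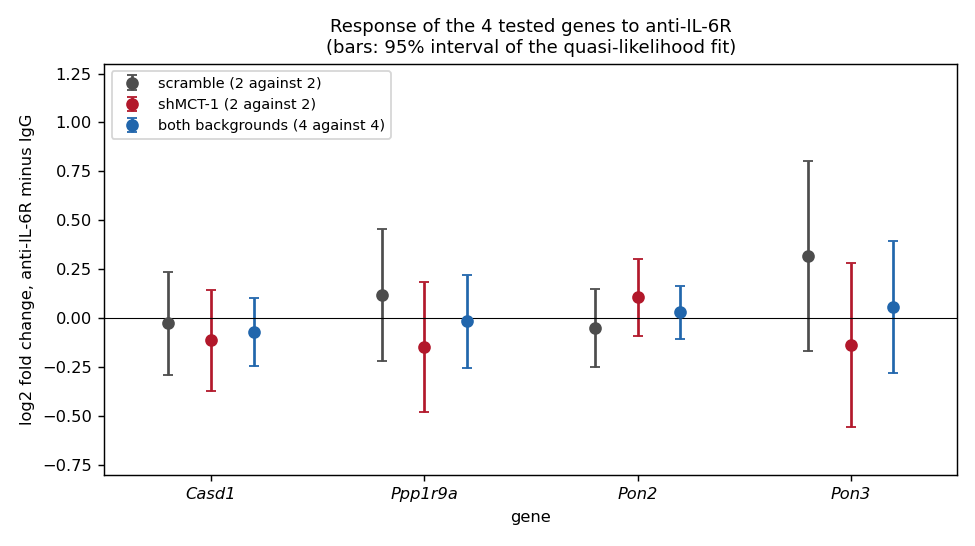
Log2 fold change of anti-IL-6R against IgG for Casd1, Ppp1r9a, Pon2 and Pon3 in scramble cells, in shMCT-1 cells and across both; points are estimates and bars 95% intervals. All 12 intervals include 0, and the widest are those of Pon3.

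The partners of the 10 genes lie elsewhere in the genome and could be tested between the lines, where 35% of all tested genes were called higher and 34% lower in shMCT-1, together 69%. The lists were drawn up with results of these libraries known, so their counts describe them. For the Kunitz and plasminogen system to which Tfpi2 belongs, 6 of 8 tested genes were called higher and 0 lower, with a median log2 fold change of 0.94. The Tfpi2 paralog Tfpi was at 0.157 CPM in scramble and 2.11 CPM in shMCT-1 (3.76, SE 0.353), the membrane inhibitors Spint1 (1.82, SE 0.097) and Spint2 (0.89, SE 0.067) and the plasminogen activators Plat (1.86, SE 0.133) and Plau (0.98, SE 0.069) rose, and the receptor Plaur was at 0.12. Tfpi2 itself was at the floor in both lines. Tfpi, at 0.0727 to 0.249 CPM in scramble, passed the limit for testing only through shMCT-1 libraries. The direction of its call was thus fixed by the filter, and the count and median of the list include it.

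For the sarcoglycans and the dystrophin-associated complex, the partners of Sgce, 1 of 6 tested genes was called higher and 5 lower, with a median of -0.37. The sarcoglycan beta gene Sgcb rose, with 11.6 to 12.99 CPM in scramble and 23.7 to 25.8 CPM in shMCT-1 (1.10, SE 0.069), whereas Utrn, the utrophin gene, fell from 137.7 to 51.1 CPM (-1.38, SE 0.120), and Sntb2 (-1.04, SE 0.080) and Dag1 (-0.39, SE 0.080) also fell. Of 15 relatives of Peg10 derived from a retrotransposon Gag, 2 were tested: Arc rose (2.73, SE 0.396) from a mean of 0.222 CPM and Rtl10 fell (-0.64, SE 0.149). Arc, at 0.0727 to 0.373 CPM in scramble, passed the limit for testing only through shMCT-1 libraries, which fixed its direction.

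In the pyruvate dehydrogenase complex and its regulators, where Pdk4 acts, 3 of 11 genes were called higher and 5 lower (median -0.34). The subunits Pdha1 (0.17, SE 0.066) and Dld (-0.42, SE 0.054) moved in opposite directions, and the complex's regulator Pdpr fell (-1.27, SE 0.125). The kinase Pdk1 fell from 86.9 to 45.9 CPM (-0.87, SE 0.052), Pdk3 was at 0.11 and Pdk2 at -0.44 without a call, and Pdk4 was at the floor in both lines. Of 9 fasting and fatty acid oxidation genes, 3 were called higher and 2 lower (median 0.04), among them Angptl4 (1.21, SE 0.228) and the lipid droplet gene Plin2 (0.61, SE 0.061), and Ppard was at -0.10 without a call. Angptl4, at 0.622 to 0.908 CPM in scramble, passed the limit for testing only through shMCT-1 libraries. For the sialic acid pathway of Casd1, 2 of 7 genes were called higher and 2 lower (median 0.10), and its most abundant genes Nans (-0.03) and Cmas (0.11) were not called. For protein phosphatase 1, the partner of Ppp1r9a, 3 of 4 genes were called higher, among them the catalytic subunits Ppp1ca (0.29, SE 0.059) and Ppp1cc (0.40, SE 0.050), and 1 lower. Of the homeobox and bone genes related to Dlx5 and Dlx6, 3 of 10 were tested, and Runx2 (-0.98, SE 0.097) and Dlx1 (-0.90, SE 0.136) fell while Dlx4 was called higher (0.45).

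Imprinted genes outside the stretch were split in direction. Of 64 such genes 22 were tested, 18 had 0 counts in all libraries, and 10 were called higher, 9 lower and 3 not called, with a median log2 fold change of -0.01. That is 86.4% called, beside 69% of all genes. Snrpn rose, with 2.01 to 2.56 CPM in scramble and 10.5 to 15.0 CPM in shMCT-1 (2.56, SE 0.136), and Nap1l4 rose (0.44, SE 0.053), while the long noncoding RNAs Kcnq1ot1 (-2.31, SE 0.129) and Airn (-2.50, SE 0.277) and the neuronal gene Nnat (-2.05, SE 0.296) fell, and Gnas was at -0.05 without a call. Airn, at 0.202 to 0.458 CPM in shMCT-1, passed the limit for testing only through scramble libraries, which fixed its direction. The retrocopy of the targeted gene, Mcts2, which is itself imprinted, was at 26.3 to 29.7 CPM in scramble and fell to 11.3 to 12.8 CPM in shMCT-1 (-1.14, SE 0.071). Mcts1 stood at 45.0 to 51.7 counts per 100 counts of Mcts2 in scramble and 40.0 to 59.1 in shMCT-1, and reads may have been shared between these near-identical copies.

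Of 14 tested regulators of DNA methylation and chromatin that keep imprints, 3 were called higher and 10 lower (median -0.32). Dnmt3a, a de novo DNA methyltransferase, was at 66.4 to 73.7 CPM in scramble and fell to 21.7 to 28.5 CPM in shMCT-1 (-1.44, SE 0.082), Tet2 (-1.19, SE 0.105) and Smchd1 (-1.03, SE 0.077) fell, and the abundant maintenance enzyme Dnmt1 fell less (-0.28, SE 0.064), while Trim28 rose (0.41, SE 0.067). Their part in the levels of the stretch was not tested.

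**Figure D5:**
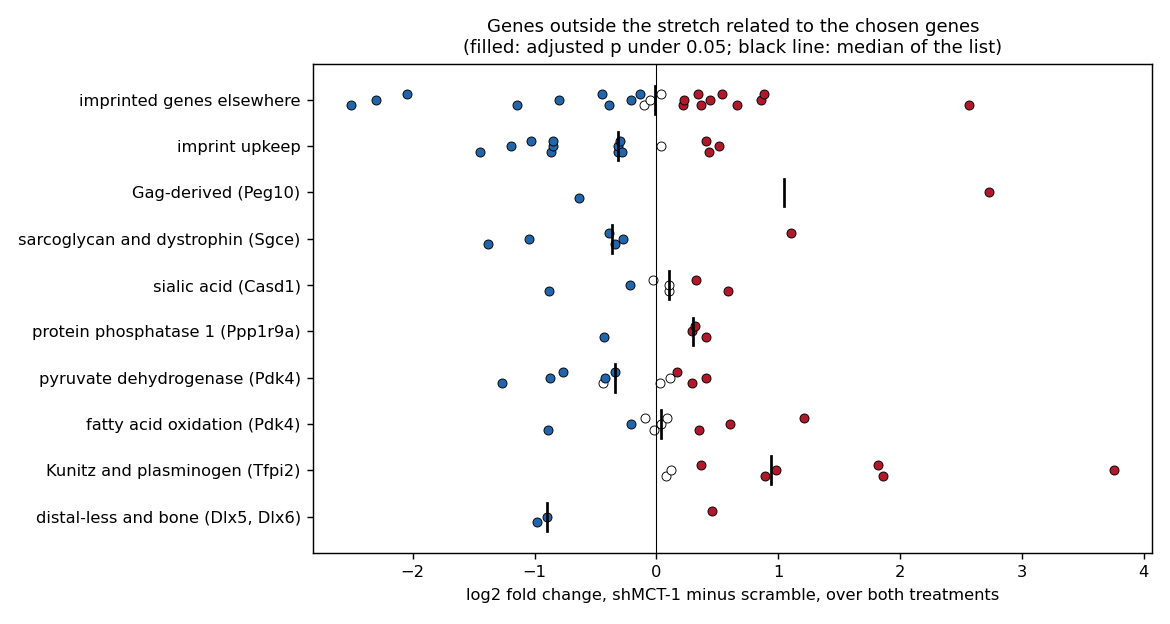
Log2 fold change between the lines (shMCT-1 over scramble) for tested genes outside the stretch, in 10 lists of partners and relatives of the chosen genes; filled points have an adjusted p under 0.05, and black lines are medians of the lists. The Kunitz and plasminogen list has a median of 0.94 and no gene called lower, and the imprinted genes elsewhere spread to both sides of a median of -0.01. Tfpi, Arc and Angptl4 passed the limit for testing only through shMCT-1 libraries, and Airn only through scramble libraries.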

How the data were processed

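4T1 RNA was measured in 8 libraries, 2 for each of 4 groups taken from the sample labels. The authors deposited RSEM expected counts per gene, not normalized, from reads trimmed by cutadapt 1.18 and aligned by STAR 2.7.0d (build mm10). Of the values above 0, 29.6% were not whole, and values were rounded for the fits only. Coordinates come from GENCODE M21 on GRCm38, matched for 54495 of 54532 gene identifiers without version. CPM and ratios were computed from the unrounded values, with library totals of 19839299 to 33063570 counts.

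The 12704 genes that exceeded 1 CPM in 2 or more libraries were scaled by TMM and tested with the quasi-likelihood test of edgeR 4.0.16 under R 4.3.3. A fit of the 4 groups gave responses within each line and the interaction, and an additive fit of line and antibody the rest. p-values were adjusted over all genes by the Benjamini-Hochberg method, with a call under 0.05. Standard errors and intervals derive from the fold change, the F statistic and its degrees of freedom. The procedure was tested on simulated data.

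The chosen genes and the lists were selected with earlier results of these data known. Named were the 10 genes, Mcts1, all tested genes of the stretch and, from each list, the 2 most abundant tested genes and those called beyond a log2 value of 1. Genes closest to the profile of Peg10 were to be named too, but Peg10 was not tested. Pdk1, Pdk2, Pdk3, Plau, Dlx4, the marker genes and the untested neighbours were added after their values were seen. A marker gene of the design is not reported here. Alternatives were RLE size factors, DESeq2 1.42.0, no filter, a stricter filter, a replicate block, fits of 4 libraries, an exact test and leaving out each library.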

Additional observations from a re-analysis of the deposited data

How the results depend on the processing

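The count of chosen genes called for anti-IL-6R was 0 under every alternative run, in all 4 comparisons. Over all genes the quasi-likelihood fits of all 8 libraries called 0 with the filter. Without it they called 64 in scramble, 133 in shMCT-1, 73 across both lines and 97 in the interaction. With the filter DESeq2 called 0, 11, 1 and 6 in the same order, and the exact test 10 in scramble and 14 in shMCT-1. The non-overlap of the lines for the 4 tested genes was the basis of the choice and is no test of it. The lists together had 33 genes called higher and 37 lower, 36 and 39 without a filter, and 28 and 35 when 1 CPM had to be exceeded in 7 libraries. Leaving out each library in turn gave 30 to 34 higher and 33 to 37 lower. Some responses changed sign. Across both lines, the value of Ppp1r9a became 0.0050 without a filter and ran from -0.096 to 0.070 as each library was left out. Leaving out libraries gave -0.022 to 0.055 for Pon2 and -0.021 to 0.126 for Pon3 across both lines. For Casd1 it gave -0.078 to 0.024 in scramble, -0.266 to 0.045 in shMCT-1 and -0.229 to 0.082 in the interaction, and for Ppp1r9a -0.018 to 0.241 in scramble and -0.309 to 0.018 in shMCT-1. In shMCT-1 (both genes) and in the interaction (Casd1) the sign turned without the library shMCT-1 + anti-IL-6R 1, and in scramble without scramble + IgG 2 for Casd1 and without scramble + anti-IL-6R 2 for Ppp1r9a; none of these values was called. The other responses of the 4 tested genes kept their sign in the alternatives run. Where leaving out a library left 1 in its group, that library was assumed to vary like the others. The labels do not say whether replicate numbers pair the libraries. Correlations between groups of the deviations from the group means lay between -0.107 and 0.112. They show no strong shared deviation but cannot decide whether libraries were prepared in pairs. With the replicate number as a block, 0 chosen genes were called for anti-IL-6R and the lists gave 33 higher and 37 lower. Crossing the numbers in shMCT-1, an alternative chosen after seeing the data, also called 0. The depth leaves the 6 genes at the floor without a fold change, and 2 libraries a group limit the responses.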
